A study of Mus musculus with 9 samples.

Results

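Platelet transcripts were examined in mouse hearts through 8 genes: Ppbp, Pf4, Gp9, Itga2b, Gp1ba, Gp5, Gp6 and Treml1. A gene was measured where a probe set of the array carried its symbol and no other; 7 of the 8 genes had 1 such probe set each, among 23521 probe sets with a single symbol, and Gp1ba was not analysed here. The genes were chosen by their log2 signals in these same hearts, Ppbp and Gp9 for being high in 1 genotype, so their levels and differences are given as a description with no test.

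The hearts came from 2 month old mice of 3 genotypes, with 3 hearts of each and 1 array per heart. Wild type mice carried neither deletion. Col4a3-/- mice lack the alpha 3 chain of type IV collagen, a basement membrane protein, and are used as a model of Alport syndrome. Col4a3-/-OPN-/- mice lack this chain and also osteopontin, the secreted glycoprotein encoded by Spp1. Strain and sex were not given in the labels. No genotype with loss of osteopontin alone was among the samples, so a difference between Col4a3-/-OPN-/- and Col4a3-/- hearts was seen only on the Col4a3-/- background.

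Platelets are cell fragments without a nucleus that megakaryocytes shed into the blood; they carry messenger RNA made in the megakaryocyte. They bind damaged vessel walls through the glycoprotein Ib-V-IX complex (Gp1ba, Gp5 and Gp9 with Gp1bb), which holds von Willebrand factor, and through the collagen receptor Gp6; they then aggregate through the fibrinogen receptor, of which Itga2b is the alpha chain. Their alpha granules release the chemokines encoded by Ppbp and Pf4, and expose Treml1, a receptor that is stored in the granule membrane. In a whole heart such transcripts can come from blood held in the vessels and from platelets attached to them. In these bulk samples fewer platelets and less of a transcript per platelet cannot be told apart.

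The 250 bases before the start of transcription are shown for 4 of the genes. Ppbp and Gp9 are the genes whose signal stood apart in Col4a3-/-OPN-/- hearts, Pf4 is the neighbour of Ppbp whose signal did not, and Gp5 is a partner of Gp9 that held both kinds of word searched for. The sequences are from RefSeq, build GRCm38.p6, written 5′ to 3′ on the strand of the gene: Ppbp at chr5:90768268-90768517 (plus strand), Pf4 at chr5:90772185-90772434 (plus strand), Gp9 at chr6:87777820-87778069 (plus strand) and Gp5 at chr16:30310782-30311031 (minus strand). Capitals mark words of megakaryocyte regulators, either a GATA word (AGATAA or TGATAA) or an ETS word (CCGGAA or AGGAAG), on either strand.
Ppbp: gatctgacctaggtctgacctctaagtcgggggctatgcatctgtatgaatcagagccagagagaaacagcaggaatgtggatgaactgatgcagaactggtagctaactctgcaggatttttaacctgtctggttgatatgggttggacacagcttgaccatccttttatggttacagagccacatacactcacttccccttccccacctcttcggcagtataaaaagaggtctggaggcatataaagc
Pf4: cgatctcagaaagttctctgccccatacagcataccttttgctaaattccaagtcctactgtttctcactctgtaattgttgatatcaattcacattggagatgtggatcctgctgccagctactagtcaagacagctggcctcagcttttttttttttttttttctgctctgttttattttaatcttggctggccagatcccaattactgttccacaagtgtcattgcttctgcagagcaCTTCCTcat
Gp9: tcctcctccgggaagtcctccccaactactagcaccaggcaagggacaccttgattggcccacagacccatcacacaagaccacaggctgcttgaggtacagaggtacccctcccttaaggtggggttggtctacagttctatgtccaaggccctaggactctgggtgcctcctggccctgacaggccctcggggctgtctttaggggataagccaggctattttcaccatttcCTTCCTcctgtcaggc
Gp5: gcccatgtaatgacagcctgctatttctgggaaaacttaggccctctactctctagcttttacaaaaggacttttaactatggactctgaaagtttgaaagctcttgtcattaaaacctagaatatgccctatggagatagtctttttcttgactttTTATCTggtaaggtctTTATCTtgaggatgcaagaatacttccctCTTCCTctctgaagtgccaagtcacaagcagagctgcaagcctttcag

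Neither word was found in these 250 bases of Ppbp, while Pf4 and Gp9 each held 1 ETS word, and Gp5 held 2 GATA words and 1 ETS word. Over the promoters of all 8 genes, 3 held a GATA word (Gp1ba, Gp5 and Gp6) and 5 held an ETS word (Pf4, Gp9, Itga2b, Gp1ba and Gp5). Over all 32851 promoters of the table, 16.6% held a GATA word and 38.2% an ETS word in a window of the same length. Matches overlapping each other were counted, and a GATA and an ETS word overlapped in none of the 8. A match is only a run of letters: the words did not separate the genes that stood apart from the others.

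Signals are given below in log2 units, so a difference of 1 is a doubling of signal, and errors after ± are SDs of 3 hearts. A level of 1 probe set cannot be set against that of another, so each gene is compared with itself across hearts. The median over all probe sets was 5.21, and 5 of the 7 measured genes had a mean above it, while Gp5 and Gp6 lay under it. Array medians lay between 5.18 and 5.24. Cardiomyocyte markers were bright, with Myh6 between 12.1 and 12.4 in the 9 hearts.

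The array least like the rest was Col4a3-/- replicate 3, with a mean Pearson's r of 0.943 to the other 8 against 0.965 to 0.977 for the others. Xist, expressed from the inactive X chromosome, was high (7.59 to 8.56) and the Y-chromosome gene Eif2s3y low (4.60 to 4.75) in 3 hearts. These were replicates 1 and 3 of Col4a3-/- and replicate 2 of the double mutant. The remaining 6 hearts, among them every wild type heart, had Eif2s3y at 7.998 or more and Xist at 4.77 or less. Genotype and this pattern of sex were thus unbalanced. The airway gene Scgb1a1 was at 12.2 in Col4a3-/- replicate 2 and at 9.81 and 9.52 in Col4a3-/-OPN-/- replicates 1 and 3. It was at most 6.104 elsewhere. The brown fat gene Ucp1 was at 11.1 in Col4a3-/- replicate 2 against 4.79 and 5.03 in replicates 1 and 3. In wild type and Col4a3-/-OPN-/- hearts it was between 6.81 and 9.20. The atrial gene Bmp10 was at 5.72, 9.17 and 7.40 in Col4a3-/- replicates 1 to 3 and at 9.377 or more elsewhere. The part of such tissue in Ppbp and Gp9 was not tested.

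The alpha granule chemokine gene Ppbp had the widest spread of the 7 genes. Ppbp (probe set 17438963, chromosome 5) was at 5.14, 5.52 and 5.22 in wild type replicates 1 to 3. It was at 4.89, 4.95 and 5.37 in Col4a3-/- replicates 1 to 3, and at 7.01, 6.46 and 6.44 in Col4a3-/-OPN-/- replicates 1 to 3. All 3 Col4a3-/-OPN-/- hearts lay above the other 6, and the lowest of them was 0.92 above the highest of the rest, while wild type and Col4a3-/- hearts overlapped.

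The mean of Ppbp was 6.63 ± 0.32 in Col4a3-/-OPN-/- hearts, 5.29 ± 0.20 in wild type and 5.07 ± 0.26 in Col4a3-/- (n = 3 each). The log2 difference was 1.56 (SE 0.18) for Col4a3-/-OPN-/- minus Col4a3-/- and 1.34 (SE 0.18) for Col4a3-/-OPN-/- minus wild type; both rest on the same 3 Col4a3-/-OPN-/- hearts. Ppbp passed the signal filter, which kept 13650 probe sets, only through the Col4a3-/-OPN-/- hearts, since its Col4a3-/- mean was under 5.21, where signals are compressed, so the size of these differences is uncertain and no fold is given. Between Col4a3-/- and wild type the difference was -0.22, which is within the spread of the hearts, and the order of these 2 genotypes was not resolved.

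Pf4, the other platelet granule chemokine, did not follow Ppbp although the genes are neighbours on chromosome 5. Pf4 (probe set 17438969) was at 6.85, 6.90 and 6.25 in wild type replicates 1 to 3. It was at 6.72, 7.05 and 7.13 in Col4a3-/- and at 7.19, 6.73 and 6.92 in Col4a3-/-OPN-/- replicates 1 to 3. The 3 genotypes overlapped throughout, and the low value of wild type replicate 3 set most of the gap between the means.

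The means of Pf4 were 6.67 ± 0.37 in wild type, 6.97 ± 0.21 in Col4a3-/- and 6.95 ± 0.24 in Col4a3-/-OPN-/- hearts (n = 3 each). The log2 difference for Col4a3-/-OPN-/- minus Col4a3-/- was -0.02, and for Col4a3-/-OPN-/- minus wild type 0.28, which fell to 0.07 without wild type replicate 3. Macrophages also express Pf4, so this probe set need not read platelets alone.

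Gp9, the subunit that the glycoprotein Ib-V-IX complex needs to reach the platelet surface, was the other gene that stood apart. Gp9 (probe set 17460569, chromosome 6) was at 5.94, 5.91 and 5.58 in wild type replicates 1 to 3. It was at 5.90, 5.46 and 5.51 in Col4a3-/- and at 6.54, 6.65 and 6.38 in Col4a3-/-OPN-/- replicates 1 to 3. The 3 Col4a3-/-OPN-/- hearts again lay above the other 6, here by 0.43 or more, and the other genotypes overlapped.

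The mean of Gp9 was 6.52 ± 0.13 in Col4a3-/-OPN-/-, 5.81 ± 0.20 in wild type and 5.62 ± 0.24 in Col4a3-/- hearts (n = 3 each). The log2 difference was 0.90 (SE 0.15), a 1.86-fold higher signal, for Col4a3-/-OPN-/- minus Col4a3-/-, and 0.71 (SE 0.15), 1.64-fold, for Col4a3-/-OPN-/- minus wild type. These folds may be compressed, since the wild type and Col4a3-/- means were not far above 5.21. Col4a3-/- minus wild type was -0.19, within the spread of the hearts. The Col4a3-/-OPN-/- heart highest for Gp9 was replicate 2 and that highest for Ppbp was replicate 1, so the order of hearts within the genotype was not shared.

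Gp5, which sits in the same receptor complex as Gp9, was dim and flat. Gp5 (17329636) was at 4.86, 4.85 and 5.14 in wild type, 4.92, 4.94 and 5.26 in Col4a3-/- and 5.05, 4.84 and 5.26 in Col4a3-/-OPN-/- replicates 1 to 3. Its genotypes overlapped, with a log2 difference of 0.0077 for Col4a3-/-OPN-/- minus Col4a3-/-. A change of Gp5 could be hidden at signals this low.

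Gp6, the collagen receptor, was also under 5.21 on average. Gp6 (17485713) was at 4.98, 5.02 and 4.68 in wild type, 4.87, 5.01 and 4.88 in Col4a3-/- and 5.30, 5.26 and 4.87 in Col4a3-/-OPN-/- replicates 1 to 3. Col4a3-/-OPN-/- replicates 1 and 2 lay above all other hearts, and replicate 3 lay among the Col4a3-/- and wild type hearts. The log2 difference was 0.22 for Col4a3-/-OPN-/- minus Col4a3-/- and 0.25 for Col4a3-/-OPN-/- minus wild type.

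Itga2b, the alpha chain of the fibrinogen receptor, varied little, at a mean of 5.54 that was not far above 5.21. Itga2b (17270222) was at 5.47, 5.37 and 5.74 in wild type, 5.51, 5.52 and 5.76 in Col4a3-/- and 5.45, 5.53 and 5.47 in Col4a3-/-OPN-/- replicates 1 to 3. The log2 difference for Col4a3-/-OPN-/- minus Col4a3-/- was -0.11. Replicate 3 was the highest heart in wild type and in Col4a3-/-, and the genotypes overlapped.

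Treml1, the receptor of the granule membrane, just passed the filter with a mean of 5.25. Treml1 (17338425) was at 4.88, 5.42 and 5.19 in wild type, 5.38, 5.44 and 5.28 in Col4a3-/- and 4.98, 5.47 and 5.25 in Col4a3-/-OPN-/- replicates 1 to 3. All 3 Col4a3-/- hearts lay inside the range of the other genotypes, and Col4a3-/-OPN-/- minus Col4a3-/- was -0.13.

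**Figure D1:**
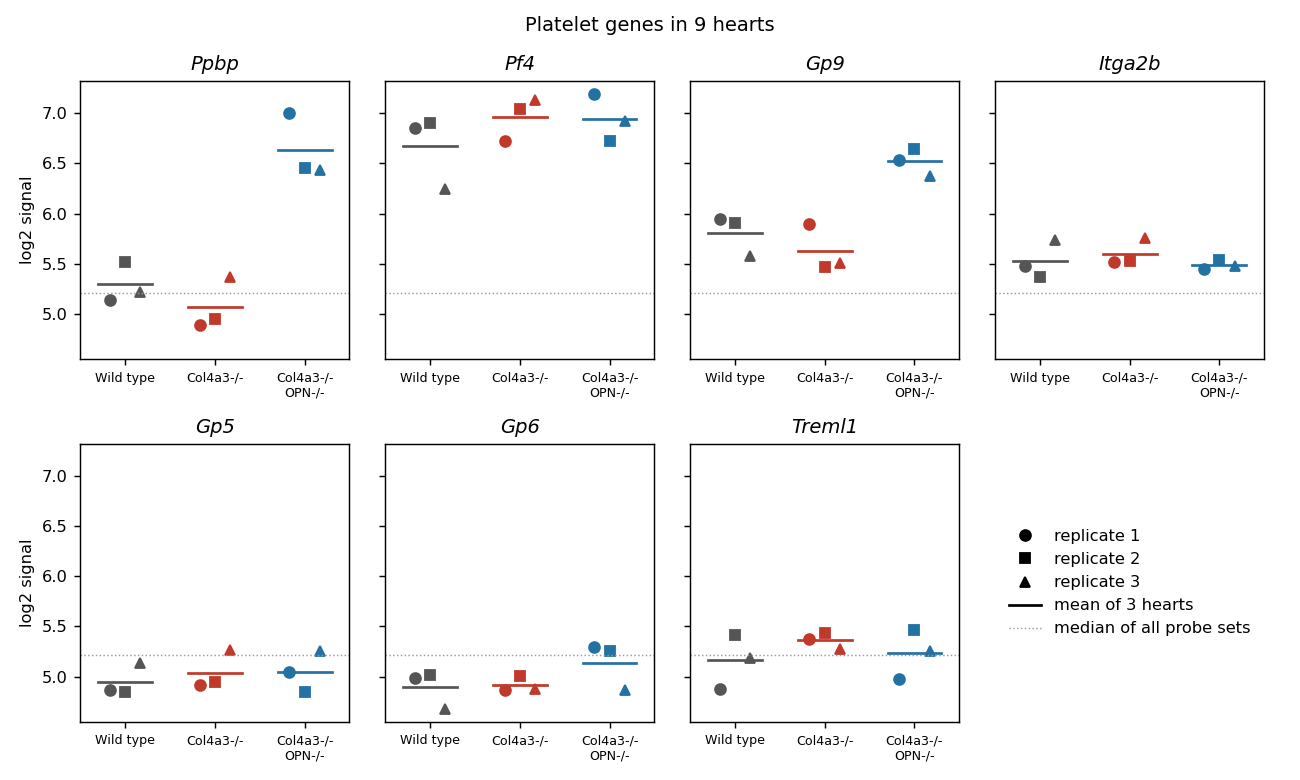
Log2 signal (y axis) of the 7 measured genes in each heart, by genotype (x axis); symbols give the replicate, bars the mean of 3 hearts, and the dotted line the median over all probe sets. Col4a3-/-OPN-/- hearts lie above all others for Ppbp (6.44 to 7.01 against at most 5.52) and Gp9 (6.38 to 6.65 against at most 5.94), and overlap the others in the remaining 5 genes.

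Counted together, 2 of the 7 measured genes had Col4a3-/-OPN-/- hearts wholly above Col4a3-/- hearts, and the same 2 lay wholly above wild type; these values chose the genes. Over all probe sets with 1 symbol, 7.04% lay wholly above and 8.35% wholly below in the first comparison, and 5.85% and 6.31% in the second. Of the 7 genes, 0 had Col4a3-/- hearts wholly above or below wild type, against 5.58% above and 5.71% below over all probe sets with 1 symbol. These counts depend on single hearts: the count of 0 became 3 when wild type replicate 3 was left out, 2 when Col4a3-/- replicate 1 was, and 1 when either wild type replicate 2 or Col4a3-/- replicate 3 was. For Col4a3-/-OPN-/- against Col4a3-/-, the count in either direction was 2. It became 4 without Col4a3-/-OPN-/- replicate 2, where the genes added, Itga2b and Treml1, lay wholly below. It became 3 without replicate 3, where Gp6 was added and lay wholly above. The median difference over the 7 genes was 0.0077 for Col4a3-/-OPN-/- minus Col4a3-/-, 0.25 for Col4a3-/-OPN-/- minus wild type and 0.07 for Col4a3-/- minus wild type. The median over all tested probe sets was 0.04, 0.01 and -0.02 in the same order. The first 2 comparisons share the Col4a3-/-OPN-/- hearts.

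The hearts can be set apart by sex pattern, though some sets then hold a single heart of a genotype. Among the 6 hearts with Eif2s3y above Xist, Ppbp was between 6.44 and 7.01 in the 2 Col4a3-/-OPN-/- hearts, at 4.95 in the Col4a3-/- heart and at most 5.52 in wild type. Among the 3 hearts with Xist above Eif2s3y, it was at 6.46 in the Col4a3-/-OPN-/- heart and at most 5.37 in the 2 Col4a3-/- hearts. That gap to Col4a3-/- hearts was smaller than the gap to the Col4a3-/- heart of the first set. For Gp9 the Col4a3-/-OPN-/- hearts had 6.38 to 6.54 against 5.46 and at most 5.94 in the first set, and 6.65 against at most 5.90 in the second. With the Eif2s3y signal as a covariate the difference between Col4a3-/-OPN-/- and Col4a3-/- hearts was 1.54 for Ppbp and 0.97 for Gp9. Without Col4a3-/- replicate 3, the difference between Col4a3-/-OPN-/- and Col4a3-/- hearts was 1.71 for Ppbp and 0.84 for Gp9.

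The rest of the platelet programme was read from 79 further genes in 4 lists, of which 72 were measured and 60 passed the signal filter. In Col4a3-/-OPN-/- minus Col4a3-/-, limma called 0 of the 60 at an adjusted p under 0.05, against 6 of 13650 probe sets (0.044%). At an unadjusted p under 0.05, 9 were higher and 4 lower, or 15.0% and 6.67% of the 60, against 8.58% and 5.03% of all tested probe sets. Groups did not overlap in 5 genes that were higher and 5 that were lower (8.33% each, against 10.1% and 6.48%). The median difference of the 60 genes was 0.05, close to the 0.04 of all tested probe sets. In Col4a3-/-OPN-/- minus wild type limma called 0 of the 60, as it did of all 13650 probe sets (0.0%), with 1 higher and 1 lower at an unadjusted p under 0.05 (1.89% and 1.79% of all tested) and a median of 0.05 against 0.01. Col4a3-/-OPN-/- hearts lay wholly above wild type in 3 of the 60 and wholly below in 2, against 7.55% and 5.65% of all tested.

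Among other platelet receptors (15 tested), the ADP receptor genes P2ry1 and P2ry12 had the highest differences between Col4a3-/-OPN-/- and Col4a3-/- hearts, and neither passed. P2ry12 was at 6.01, 5.96 and 5.86 in Col4a3-/-OPN-/- replicates 1 to 3, at 5.43, 5.77 and 5.09 in Col4a3-/- and at 5.54, 5.27 and 5.39 in wild type. All its Col4a3-/-OPN-/- hearts lay above the other 6 (log2 difference 0.51 to Col4a3-/-, limma adjusted p = 0.239, and 0.54 to wild type, adjusted p = 0.999). Without Col4a3-/- replicate 3 the first difference was 0.34.

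P2ry1 was at 7.72, 8.02 and 7.50 in Col4a3-/-OPN-/- hearts against 7.45, 6.82 and 6.001 in Col4a3-/- and 7.58, 7.35 and 7.60 in wild type. Col4a3-/- replicates 2 and 3 lay below all other hearts, and wild type hearts reached 7.60 (0.99 to Col4a3-/-, limma adjusted p = 0.236); without Col4a3-/- replicate 3 the difference was 0.61. Selp, the P-selectin of platelet granules and activated endothelium, had the lowest difference (-1.08, adjusted p = 0.437), set by 8.58 in Col4a3-/- replicate 3 against 5.66 and 6.15 in replicates 1 and 2; without it the difference was -0.18. Itgb3, the partner chain of Itga2b, had -0.16 (limma adjusted p = 0.787), which turned to 0.16 without that heart.

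Of 16 tested genes of granule proteins and granule assembly, 6 had positive and 10 negative differences between Col4a3-/-OPN-/- and Col4a3-/- hearts (median -0.04). The growth factor gene Pdgfb (0.53, limma adjusted p = 0.316) and Nbeal2, needed to form alpha granules (0.33, 0.355), were at the upper end. The clotting factor XIII chain F13a1 (-0.34, 0.612) and the factor V carrier Mmrn1 (-0.28, 0.558) were at the lower end. Both rest on single hearts: without Col4a3-/- replicate 3, which had the highest Mmrn1 signal, Mmrn1 was at -0.06 and F13a1 at -0.64, and F13a1 ranged from -0.64 to -0.058 with 1 heart left out. Vwf, which binds the glycoprotein Ib complex and is also made by endothelium, was between 7.57 and 7.94 in Col4a3-/-OPN-/- hearts and between 7.13 and 8.22 in Col4a3-/- hearts.

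Signalling and cytoskeletal genes (18 tested) and megakaryocyte regulators (11 tested) were mixed in the same comparison. Rasgrp2, the exchange factor that activates integrins through Rap1, had 0.47 (limma adjusted p = 0.306) and filamin A, Flna, 0.42 (0.383); without Col4a3-/- replicate 3 Rasgrp2 had 0.28. The receptor chain Fcer1g, which pairs with Gp6 but is also made by macrophages, had -0.56 (0.234), and the adaptor gene Lcp2 -0.47 (0.289). Among regulators Mecom had 0.51 (0.172; its other probe set, under the filter, had 0.17) and Fli1, an ETS factor also made by endothelium, 0.40 (0.353), or 0.23 without that heart. Runx1 had -0.29 (0.553), and Gfi1b, a repressor of the megakaryocyte and red cell lineages, -0.36 (0.190), with its 3 Col4a3-/-OPN-/- hearts below the other 6.

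In Col4a3-/- minus wild type, limma called 0 of the 60 genes, as of all 13650 probe sets (0.0%), and at an unadjusted p under 0.05 1 was higher (2.39% of all tested) and 3 were lower (5.96%). Groups did not overlap in 3 higher and 4 lower genes, against 4.58% and 7.9% of all tested. The median was 0.03 against -0.02. The adaptor gene Lcp2 was the higher one (0.53, limma adjusted p = 0.461).

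The 12 platelet and megakaryocyte genes that failed the filter have no test, and those named were chosen after their values were seen. Col4a3-/-OPN-/- hearts lay wholly above Col4a3-/- hearts in 2 of the 12 (Clec1b and Tubb1) and wholly below in 4 (Gata1, Nfe2, Slc35d3 and Rab38), where 7.04% and 8.35% of all probe sets with 1 symbol did so. Clec1b, the podoplanin receptor of platelets, was at 5.15, 4.85 and 4.85 in Col4a3-/-OPN-/- replicates 1 to 3 and at most 4.75 in the other 6 hearts. Tubb1, the platelet tubulin, was at 5.20, 5.31 and 5.12 in Col4a3-/-OPN-/- hearts, at 4.93 in all 3 Col4a3-/- hearts and between 4.87 and 5.19 in wild type. The differences to Col4a3-/- hearts were 0.30 for Clec1b and 0.28 for Tubb1. The lineage factor genes Gata1 and Nfe2 were dim too, with differences of -0.22 and -0.20.

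**Figure D2:**
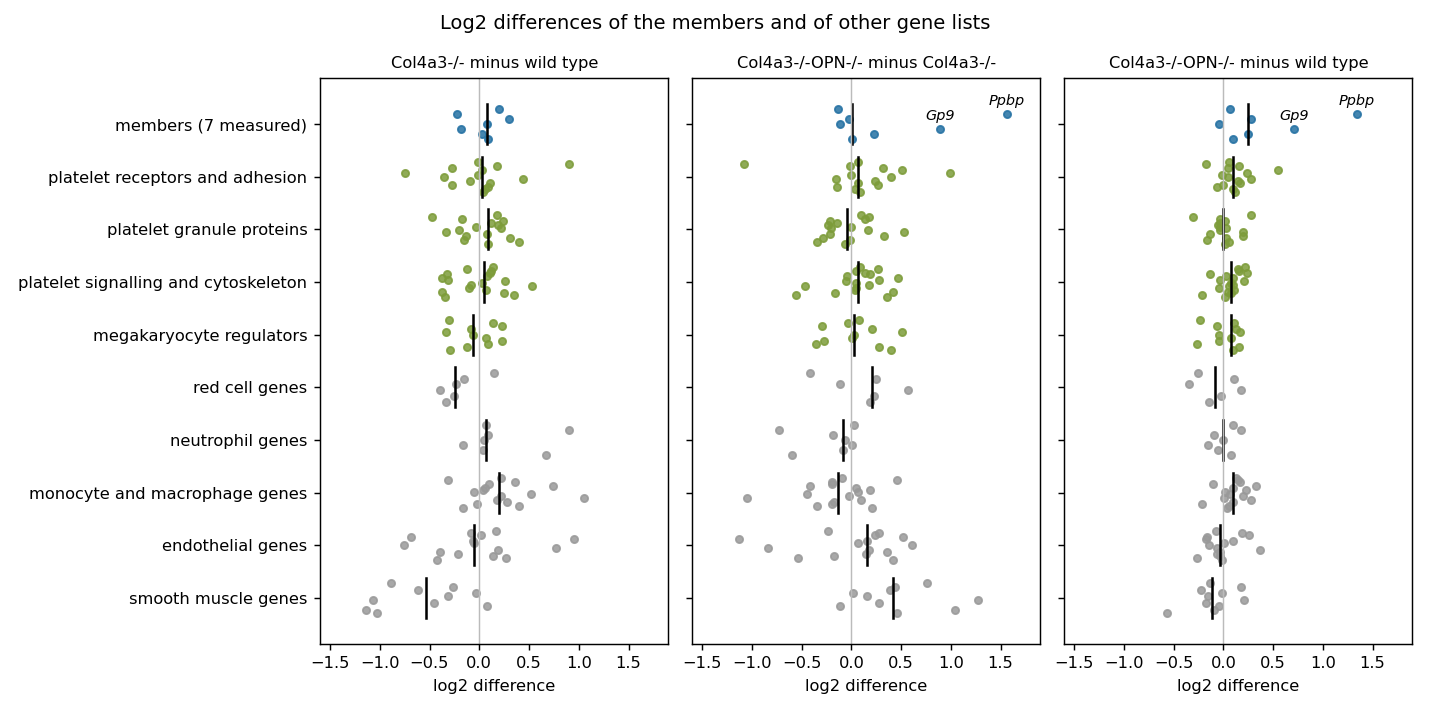
Log2 differences (x axis) in 3 comparisons for the 7 measured members and for the tested genes of other lists (rows); each point is a gene and each black bar the list's median. Ppbp and Gp9 lie apart from the other members in both comparisons with Col4a3-/-OPN-/- hearts, while the medians of the 4 other platelet and megakaryocyte lists lie between -0.04 and 0.10 there.

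Other blood cells and the vessel wall were read in the same hearts. Of 24 red cell genes 6 were tested, without the globin genes, which were not analysed here. The mean log2 signal per heart of the 6 was 7.17 to 7.55 in Col4a3-/-OPN-/- and 7.02 to 7.35 in Col4a3-/- hearts. In wild type hearts it was 7.27 to 7.62. Tfrc alone ran from 6.44 to 9.45 over the hearts and weighed on these means, so they need not read blood content. The median difference of the 6 for Col4a3-/-OPN-/- minus Col4a3-/- was 0.21, with 4 of 6 positive and Tfrc lowest (-0.41). Slc25a37 (0.57) and Fech (0.23), which serve haem synthesis, had Col4a3-/-OPN-/- hearts wholly above Col4a3-/- hearts, as 10.1% of all tested probe sets did. The red cell anion exchanger Slc4a1 had -0.12 for Col4a3-/-OPN-/- minus Col4a3-/- (limma adjusted p = 0.568). Its Col4a3-/-OPN-/- hearts lay below the other 6. Of the 7 red cell genes under the filter, Klf1 and Hemgn did the same and were chosen after their values were seen. Col4a3-/-OPN-/- hearts lay wholly below Col4a3-/- hearts in 8.35% of all probe sets with 1 symbol and in 6.48% of tested ones. The share below all of the other 6 hearts was not counted. Among the rest, Ermap (0.0077), Rhag (0.01) and Trim10 (0.06) had positive and Epb42 (-0.11) and Kel (-0.08) negative differences. The red cell genes thus had differences of both signs. Of 18 neutrophil genes 7 were tested, with a mean of 5.60 to 5.77, 5.55 to 6.33 and 5.58 to 5.77 in the same order of genotypes, and S100a8 and S100a9 were at most 5.18 in any heart. B cell genes (3 of 13 tested) had medians of 0.12 and T and NK cell genes (5 of 17) of -0.05 for Col4a3-/-OPN-/- minus Col4a3-/-.

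Macrophage genes (16 of 16 tested) had a mean of 7.14 to 7.43 in Col4a3-/-OPN-/-, 7.25 to 7.63 in Col4a3-/- and 7.16 to 7.24 in wild type hearts, and a median of -0.14 for Col4a3-/-OPN-/- minus Col4a3-/-, which turned to 0.10 when Col4a3-/- replicate 2 was left out and to 0.04 when Col4a3-/-OPN-/- replicate 2 was. Endothelial genes (15 of 15) had means of 8.05 to 8.29, 7.77 to 8.64 and 8.11 to 8.23, and a median of 0.16, which turned to -0.11 without Col4a3-/- replicate 1 and was 0.28 without Col4a3-/- replicate 3. The mean of each of these lists overlapped between Col4a3-/-OPN-/- and Col4a3-/- hearts. Ppbp and Gp9 are single genes chosen for lying apart, so these list means cannot be set against them. The mean of the smooth muscle genes (10 of 10) did not overlap, at 8.26 to 8.39 in Col4a3-/-OPN-/- and 7.68 to 7.99 in Col4a3-/- hearts. Wild type hearts were at 8.40 to 8.47. The smooth muscle myosin gene Myh11, between 8.14 and 8.17 in Col4a3-/-OPN-/- and between 6.73 and 7.01 in Col4a3-/- hearts, was the 1 gene of all lists that limma called (1.28, adjusted p = 0.0104). That call was lost with the replicate number as a block, with the Eif2s3y signal as a covariate and without Col4a3-/-OPN-/- replicate 1. The part of these cell types in the Ppbp and Gp9 values was not tested. The list of clotting genes of the liver (3 of 11 tested) had a median of -0.21. Of these, Alb was at 10.5 in Col4a3-/- replicate 3 and between 5.16 and 6.52 in the other hearts. The dim genes Fgb (6.33), Fgg (6.18), Plg (5.87) and Fga (5.47) were also highest in that heart. The cause was not tested.

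The genes next to Ppbp and Gp9 on their chromosomes did not share their pattern. Ppbp lies in a cluster of CXC chemokine genes, and its 10 nearest measured neighbours, 5 on each side, are Afp, Afm, Albfm1, Rassf6 and Cxcl5 before it and Pf4, Cxcl3, Cxcl15, Cxcl1 and Cxcl2 after it. Their log2 differences between Col4a3-/-OPN-/- and Col4a3-/- hearts lay between -0.30 (Cxcl1) and 0.04 (Rassf6), against 1.56 for Ppbp, but 8 of the 10 were under the filter. The neutrophil attractant Cxcl1 had limma adjusted p = 0.495, and Cxcr2, the receptor for the Ppbp product, had a difference of 0.0059 (adjusted p = 0.992). Around Gp9 the 10 neighbours, chosen after the values were seen, lay between -0.25 (Efcc1) and 0.14 (Isy1), and 8 of them passed the filter.

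Spp1, the gene deleted in Col4a3-/-OPN-/- mice, is on chromosome 5 as well, and has no probe set of its own symbol here. Of the 98 measured genes between Ppbp and Spp1, 59 were tested. For Col4a3-/-OPN-/- minus Col4a3-/- limma called 0 of them, against 6 of all 13650 tested probe sets (0.044%). At an unadjusted limma p under 0.05 there were 7 in either direction, where 8.58% of all tested probe sets were higher and 5.03% lower. Col4a3-/-OPN-/- hearts lay wholly above Col4a3-/- hearts in 8 of the 59 and wholly below in 2, which is 13.6% and 3.39% against 10.1% and 6.48% of all tested probe sets, and the median difference was 0.02. This stretch was chosen after the values were seen.

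**Figure D3:**
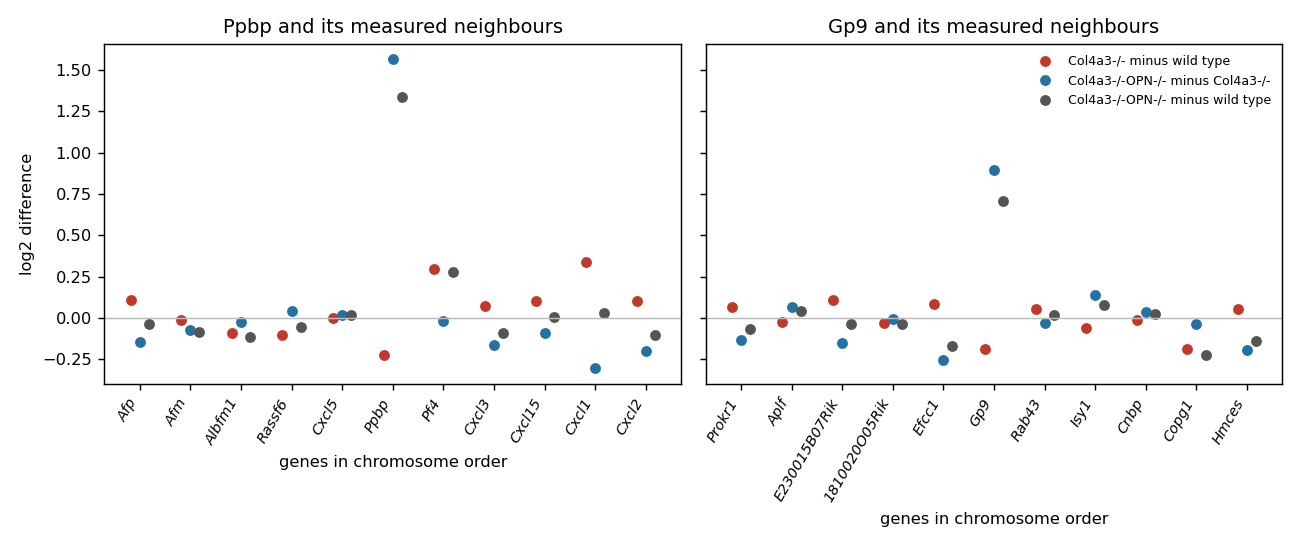
Log2 differences (y axis) in 3 comparisons for Ppbp and Gp9 and for their 5 nearest measured genes on each side, in chromosome order (x axis, not to scale). Ppbp (1.56) and Gp9 (0.90) stand above their neighbours, which lie between -0.30 and 0.14 for Col4a3-/-OPN-/- minus Col4a3-/-.

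Genes with the most similar profile over the 9 hearts were found by the root mean square (RMS) difference of centred log2 signals, where 0 is an identical profile. For Ppbp the closest 5 were Snap91 (RMS 0.34), Epn3 (0.38), Cyp2d22 (0.41), Trim12a (0.41) and Ercc2 (0.41), against a median of 0.73 over tested probe sets; Gp9 was at 0.42. For Gp9 the closest were Abca12 (0.17), Zfp235 (0.17), Nedd1 (0.18), Pm20d1 (0.18) and Cacng7 (0.20), against a median of 0.44. Seen from Gp9, Ppbp was at 0.42, near that median. None of these 10 genes was on a list of platelet or megakaryocyte genes. Snap91, the closest to Ppbp, was at 6.39 ± 0.30 in Col4a3-/-OPN-/-, 5.62 ± 0.22 in wild type and 5.06 ± 0.19 in Col4a3-/- hearts. Its Col4a3-/- hearts lay below all wild type hearts, whereas those of Ppbp overlapped wild type. In 8 of the 10 genes the Col4a3-/-OPN-/- hearts lay above all other hearts, Trim12a and Cacng7 excepted; such likeness is a description of these 9 hearts, and genes with this step were chosen for it.

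**Figure D4:**
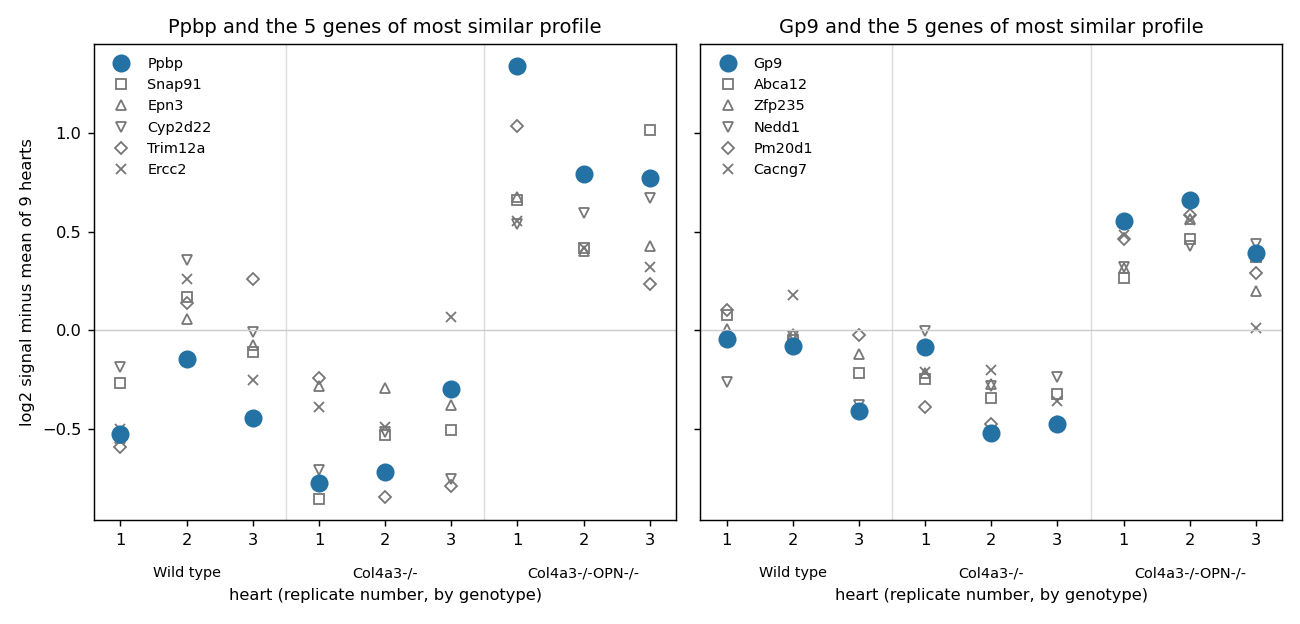
Log2 signal minus the gene's mean over the 9 hearts (y axis) for each heart (x axis, by genotype), for Ppbp and Gp9 (filled circles) and the 5 genes with the smallest RMS difference to each (open symbols and crosses). Col4a3-/-OPN-/- hearts are the highest for both. The similar genes lie at RMS 0.34 to 0.41 from Ppbp and 0.17 to 0.20 from Gp9. RMS grows with the range over hearts, 2.11 for Ppbp and 1.18 for Gp9, so these values do not rank the likeness.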

How the data were processed

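Total RNA from snap-frozen hearts was measured on a whole-transcript Affymetrix mouse array, 1 heart per array. The deposited values are log2 signals per probe set made by the authors with RMA, per the submitters' processing notes; its version and settings are not given in the sources used here. RMA normalizes across arrays, so a shift of all genes would not be seen. Per the labels a kit meant for small RNA was used, so the labelling step is uncertain.

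Probe sets with 1 symbol in the platform annotation (23521 of 33793) were used, with symbols updated by gene identifier through RefSeq (GRCm38.p6). Those with a mean above 5.21, the median of all probe sets, were tested (13650). Differences among the 9 arrays were fitted with limma 3.58.1 in R 4.3.3 (lmFit, eBayes with intensity trend), with two-sided p-values adjusted by Benjamini-Hochberg over all tested probe sets at 0.05; the fit was tested on simulated data. An exact permutation of 3 against 3 cannot give a p below 0.1. The number of arrays limits the precision.

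The members and gene lists were chosen with earlier results of these data known. Named genes were the members, the genes of each list past the threshold, the 2 highest and 2 lowest tested genes of each list for Col4a3-/-OPN-/- minus Col4a3-/- (given in the text for the platelet and megakaryocyte lists), the nearest neighbours and the most similar profiles; others are said to be chosen after their values were seen or mark a cell type. Where a gene had several probe sets the brightest stood for it. Same-numbered hearts of different genotypes had correlations of their deviations from -0.19 to 0.23, so numbers were not taken to pair hearts.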

Additional observations from a re-analysis of the deposited data

How the results depend on the processing

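The log2 difference between Col4a3-/-OPN-/- and Col4a3-/- hearts lay between 1.38 and 1.71 for Ppbp and between 0.82 and 1.03 for Gp9 over 20 alternatives; against wild type it lay between 1.15 and 1.45, and 0.59 and 0.78. Pf4 lay between -0.14 and 0.09 against Col4a3-/-. Many of the 20 alternatives cannot move a difference of group means. These change only the filter, the probe sets or arrays fitted, the eBayes step or the block, or leave out a heart of the third genotype. The ranges rest on the others. Among the other platelet and megakaryocyte genes limma called 0 in each comparison under each of the 20 alternatives.

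Counts of calls over all tested probe sets moved. For Col4a3-/- minus wild type the count of 0 became 1 with each array centred on its median, with the stricter filter, without an intensity trend and with robust eBayes, 4 with the Eif2s3y signal as a covariate, and 0 to 6 with 1 heart left out. For Col4a3-/-OPN-/- minus Col4a3-/- the count of 6 became 2 with the stricter filter, 2 with array weights, 0 with the replicate number as a block and 0 with the Eif2s3y covariate, and 0 to 22 with 1 heart left out (22 without Col4a3-/- replicate 2, 0 without Col4a3-/-OPN-/- replicate 1). For Col4a3-/-OPN-/- minus wild type the count of 0 became 1 with array weights, 2 with the Eif2s3y covariate, and 0 to 3 with 1 heart left out. The causes were not tested.

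The replicate block left the difference of Ppbp at 1.56, as it must, since each genotype holds each replicate number once. The numbers were not shown to pair hearts. With 1 heart left out, the median over the 7 measured genes lay between -0.054 and 0.12 for Col4a3-/-OPN-/- minus Col4a3-/- (0.12 without Col4a3-/- replicate 3, 0.11 without Col4a3-/-OPN-/- replicate 2) and between 0.14 and 0.31 for Col4a3-/-OPN-/- minus wild type (0.14 without wild type replicate 3). Itgb3 lay between -0.35 and 0.16 for Col4a3-/-OPN-/- minus Col4a3-/- with 1 heart left out, turning to 0.16 without Col4a3-/- replicate 3. Signal near background limits Gp5, Gp6, Treml1, Itga2b and the Col4a3-/- and wild type levels of Ppbp.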
